A study of Mus musculus with 2 samples.

Results

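The interferon-induced genes described here are 35 genes known to be switched on by interferons: the Ifit family, other antiviral effectors, interferon-inducible GTPases, nucleic acid sensors, signalling and transcription factors and the chemokine Cxcl10. They were chosen by symbol, without regard to cell class. Of the 35, 34 matched a row among the 32285 features, and Mx1 was not analysed here. Their transcripts were counted as unique molecular identifiers (UMIs) in single retinal cells of mice on the B6.Cg background with the allele Gt(ROSA)26Sortm9(CAG-tdTomato)Hze, a Cre-dependent tdTomato reporter, aged 14 weeks and injected with an adeno-associated virus (AAV) 8 weeks earlier. Cells positive for tdTomato were sorted and 1 library was made from each group, one labelled Muller and one labelled MullerControl. Written without an umlaut, Muller and MullerControl name the libraries, and Müller names the cell class. The Muller virus is treated as the tested one, since the second label calls its group a control. Both groups share the strain, the age, an AAV injection and a sort for tdTomato, so neither is an uninjected retina. The yield of the sort differed. In Muller 4.9% of cells were positive and 60000 were collected, and in MullerControl 10% and 120000, with 27000 loaded from each. The labels give neither the cargo or promoter of either virus nor the number of mice pooled.

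Interferons are secreted proteins that a cell releases when it senses foreign nucleic acid. They bind receptors on the same and on neighbouring cells, JAK kinases then phosphorylate STAT proteins, and a complex that includes STAT2 and IRF9 binds interferon-stimulated response elements in the promoters of the target genes. Type II interferon favours the interferon-inducible GTPases, IRF1 and CXCL10. Many products of these genes block the entry, translation or replication of viruses, and in the retina both microglia, the resident immune cells, and Müller cells, the principal glia, can express them.

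Promoter sequences are shown for 5 of the members with many UMIs in the few cells described below. The choice is not a ranking, since Ifit1 had 89 UMIs in those cells and is not shown, while Cxcl10 had 50. Each line gives the 250 bases before the annotated start, 5′ to 3′ on the strand of the gene (RefSeq, GRCm38.p6), with matches to a core form of the response element in capitals: GAAA, any 2 bases and GAAA, or on the opposite strand TTTC, any 2 bases and TTTC. They lie at chr19:34583279-34583528 (plus strand) for Ifit3, chr19:34607707-34607956 (plus) for Ifit3b, chr12:26456453-26456702 (minus) for Rsad2, chr5:92348890-92349139 (minus) for Cxcl10 and chr4:156200819-156201068 (minus) for Isg15.
Ifit3: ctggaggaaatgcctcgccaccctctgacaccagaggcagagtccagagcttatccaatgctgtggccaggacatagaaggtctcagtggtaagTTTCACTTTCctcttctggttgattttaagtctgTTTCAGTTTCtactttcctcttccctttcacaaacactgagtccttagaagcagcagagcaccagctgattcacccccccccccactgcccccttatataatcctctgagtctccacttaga
Ifit3b: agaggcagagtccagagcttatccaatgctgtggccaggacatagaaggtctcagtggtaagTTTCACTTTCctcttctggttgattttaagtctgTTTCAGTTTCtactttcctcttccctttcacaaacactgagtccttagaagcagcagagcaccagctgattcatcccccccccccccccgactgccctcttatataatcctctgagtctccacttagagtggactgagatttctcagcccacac
Rsad2: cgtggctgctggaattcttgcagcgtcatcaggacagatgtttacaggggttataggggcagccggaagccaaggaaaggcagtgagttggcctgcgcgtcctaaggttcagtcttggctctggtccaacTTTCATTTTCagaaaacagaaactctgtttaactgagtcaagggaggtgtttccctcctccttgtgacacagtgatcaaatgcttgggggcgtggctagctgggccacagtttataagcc
Cxcl10: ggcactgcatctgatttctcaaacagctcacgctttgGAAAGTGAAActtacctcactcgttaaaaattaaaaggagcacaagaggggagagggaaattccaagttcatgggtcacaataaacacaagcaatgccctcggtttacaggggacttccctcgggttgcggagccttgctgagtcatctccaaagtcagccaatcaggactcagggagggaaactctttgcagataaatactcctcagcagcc
Isg15: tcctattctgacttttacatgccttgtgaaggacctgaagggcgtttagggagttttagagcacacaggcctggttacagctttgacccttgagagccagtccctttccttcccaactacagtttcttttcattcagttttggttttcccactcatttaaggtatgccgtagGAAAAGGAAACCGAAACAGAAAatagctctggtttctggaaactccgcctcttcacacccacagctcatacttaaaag

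The upstream windows of Ifit3 and Ifit3b were identical at 216 of 250 aligned bases, and both hold a pair of matches with the same spacing. In Isg15 overlapping matches run together. Among the 28 members with a promoter entry, 19 held the motif in the 300 bases from 250 before to 50 after the start, and 3.44% of all 32851 promoters of that length did so. Iigp1, Usp18, Rtp4, Parp14, Zbp1, Ifi27 and Mx1 had no entry. A match is a description of the letters and not evidence that a factor binds. Ifit3 and Ifit3b also share transcript sequence: 51.2% of the 50-base words of Ifit3 and 44.5% of those of Ifit3b occur in the other. At the downstream end of the transcripts alone the shares were 14.9% for Ifit3 and 0% for Ifit3b. The split of UMIs between the pair is uncertain where they come from shared words. Oas1a shares 57.6% of its words with Oas1g, and 56.1% at its downstream end. Igtp and Irgm2 overlap on the same strand.

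The Muller library held 12316 barcodes and 25622379 UMIs, and the MullerControl library 11309 barcodes and 23549118 UMIs. After filters and doublet removal 10757 and 9538 cells were kept, with medians of 1504 and 1603 UMIs. Of the barcode sequences, 40 occurred in both libraries. Cells were assigned to classes by their share of UMIs from marker genes, none of which was a member. The Müller class, with markers such as Rlbp1 and Slc1a3, held 1100 cells of the Muller library and 635 of the MullerControl library, or 2106138 and 1737902 UMIs, and its cells had medians of 1446 and 1892 UMIs. Levels are UMIs of a gene per 1000000 UMIs (CPM), summed over the cells of a class, and ratios are log2 ratios of Muller over MullerControl with 1 count added to each sum. With 1 library per group there are no replicates and no test between groups, virus and library cannot be told apart, and every interval is a 95% interval for counting error alone, which leaves out differences between cells, mice and sorts. Any gene with 20 or more UMIs in the 2 sums of a class together counts as measured there.

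The members were found mainly in Müller cells and in the microglia or macrophage class. Their UMIs summed to 1535 CPM (1483 to 1589) in Muller and 2237 CPM (2167 to 2308) in MullerControl in Müller cells, and to 1870.3 CPM (1742 to 2006) in Muller and 1758 CPM (1668 to 1851) in MullerControl in microglia or macrophages. Amacrine cells, inhibitory interneurons, held 156 CPM (140.5 to 174) in Muller and 174 CPM (145 to 206) in MullerControl. Rods, the photoreceptors of dim light, held 146 CPM (136 to 157) in Muller and 96.7 CPM (90.6 to 103) in MullerControl. Bipolar cells, which relay photoreceptor signals, held 114 and 98.5 CPM, and cones, the photoreceptors of daylight, 94.6 and 69.9 CPM in Muller and MullerControl. Of the 34 members, 14 had their highest class level in Müller cells in both libraries and 9 in microglia or macrophages in both, while the other 11 had different highest classes in the 2 libraries.

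**Figure D1:**
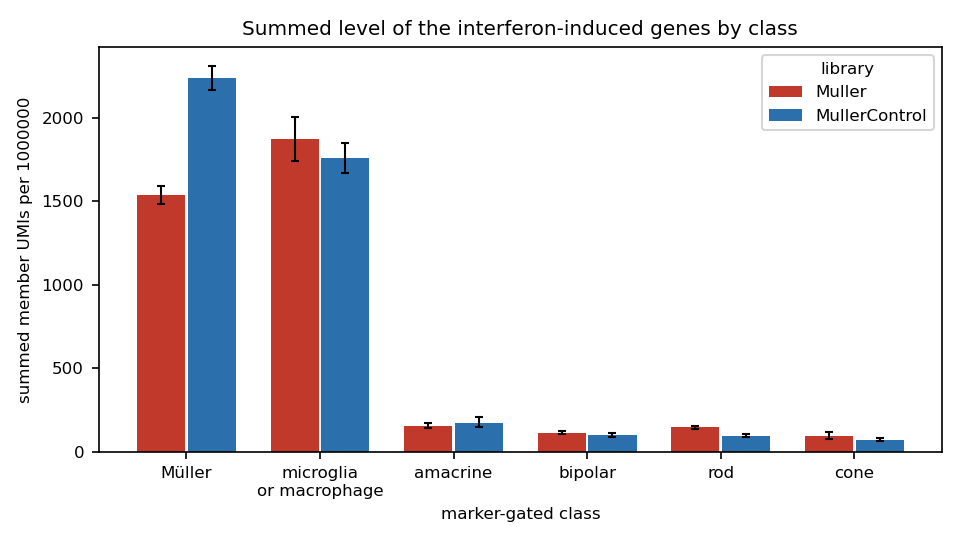
Summed level of the 34 matched members (UMIs per 1000000) in 6 marker-gated classes. Red bars are the Muller library and blue bars the MullerControl library, 1 library each, and error bars are exact Poisson 95% intervals. Müller cells stand at 1535 CPM in Muller and 2237 CPM in MullerControl, and the 4 neuron classes lie at or below 206 CPM.

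In summed Müller cells the interferon-induced genes were lower in the Muller library. Of 32 measured members, 12 were at least 1.5-fold lower, where 6.19% of all 11113 measured genes were, and 0 were at least 1.5-fold higher, where 7.53% of all genes were. The members' median log2 ratio was -0.44, beside -0.030 over all measured genes. Intervals lay below 0 for 17 members and above 0 for 0, and the share of all measured genes with such intervals was not computed. The summed log2 ratio was -0.54 (-0.61 to -0.48). These sums rest unevenly on cells, as described further on: 5 cells of the MullerControl library held 25.7% of its member UMIs, and without them 5 of 30 members were at least 1.5-fold lower, where 6.18% of all measured genes were, with a median of -0.062.

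The Ifit family, cytoplasmic proteins that bind foreign RNA and hinder its translation, was lower as a group. Its 4 members summed to 249.7 CPM (229 to 272) in Muller and 508 CPM (475 to 542) in MullerControl, a log2 ratio of -1.02 (-1.18 to -0.87). Ifit3 stood at 133 CPM (118 to 150.0) in Muller, against 273 CPM (249 to 298) in MullerControl, from 281 and 474 UMIs, and its log2 ratio was -1.03 (-1.24 to -0.82). It was detected in 16.1% of Muller and 24.3% of MullerControl Müller cells, shares not matched for depth (medians of 1446 and 1892 UMIs). Its neighbour Ifit3b had 60.3 CPM (50.3 to 71.7) in Muller, against 125 CPM (109 to 143) in MullerControl, with a log2 ratio of -1.05 (-1.37 to -0.74). Ifit1, which binds RNA caps that lack methylation, had 38.0 CPM (30.1 to 47.3) in Muller, against 91.5 CPM (77.8 to 107) in MullerControl, with a log2 ratio of -1.26 (-1.64 to -0.87). Ifit2 did not share the difference. It stood at 18.0 CPM (12.8 to 24.8) in Muller and 17.8 CPM (12.1 to 25.3) in the MullerControl library.

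Among the other antiviral effectors the members diverged. Bst2 (tetherin), which holds budding virus particles at the cell surface, had 70.7 CPM (59.8 to 83.1) in Muller, against 160.0 CPM (142 to 179.9) in MullerControl, a log2 ratio of -1.17 (-1.46 to -0.89). Bst2 was detected in 9.18% against 21.7% of cells, shares again not matched for depth. Isg15, a ubiquitin-like protein joined to other proteins during the response, had 69.8 CPM (59.0 to 82.0) in Muller, against 107 CPM (92.2 to 124) in MullerControl, a log2 ratio of -0.61 (-0.93 to -0.30). Rsad2 (viperin), which makes a chain-terminating nucleotide, had 13.3 CPM (8.83 to 19.2) in Muller, against 43.7 CPM (34.5 to 54.7) in MullerControl, a log2 ratio of -1.69 (-2.30 to -1.07), but 1 MullerControl cell held 35 of the 76 UMIs of that library. Lgals3bp, a secreted glycoprotein, had a log2 ratio of -0.58 (-1.01 to -0.16), and Parp14, an ADP-ribosyltransferase, -0.45 (-0.87 to -0.032). By contrast the intervals of 5 effectors included 0. Ifi27 stood at 224 CPM (204 to 245) in Muller, against 228 CPM (207 to 252) in MullerControl. Ifitm3, which hinders the fusion of viruses with endosomes, stood at 151 and 163 CPM in Muller and MullerControl, and Xaf1, a pro-apoptotic factor, at 73.1 and 70.8 CPM. The log2 ratios of Ifi35 and Rtp4 were -0.26 (-0.60 to 0.094) and -0.33 (-0.84 to 0.19).

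The interferon-inducible GTPases, which attack the membranes around intracellular pathogens, summed to 142 CPM (126 to 159) in Muller and 251 CPM (228 to 276) in MullerControl. Igtp (Irgm3) had 22.8 CPM (16.8 to 30.2) in Muller, against 58.7 CPM (47.9 to 71.2) in MullerControl, a log2 ratio of -1.35 (-1.84 to -0.86). Gbp2, a guanylate-binding protein, had 16.1 CPM (11.2 to 22.6) in Muller, against 45.5 CPM (36.0 to 56.7) in MullerControl, a log2 ratio of -1.47 (-2.04 to -0.90), and its relative Gbp3 had -1.12 (-1.93 to -0.31). For Iigp1 (Irga6) the counts were 3 and 18 UMIs, of which 1 MullerControl cell held 15, and the log2 ratio was -2.53 (-4.08 to -0.97). Gbp7 was lower by less than 1.5-fold, at -0.39 (-0.73 to -0.039), and the intervals of Irgm1, at -0.22 (-0.77 to 0.32), and of Irgm2, at -0.36 (-1.35 to 0.62), included 0.

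Among the sensors of viral nucleic acid and the factors that carry the signal, Ddx58 (RIG-I), a sensor of viral RNA ends, was at least 1.5-fold lower, with 20.4 CPM (14.8 to 27.5) in Muller, against 42.6 CPM (33.4 to 53.5) in MullerControl and a log2 ratio of -1.05 (-1.58 to -0.51). Eif2ak2 (PKR), a kinase that halts translation on double-stranded RNA, had a log2 ratio of -0.48 (-0.90 to -0.063), and Ifih1 (MDA5), a sensor of long double-stranded RNA, -0.42 (-0.87 to 0.026). Oasl2, of the oligoadenylate synthetase family, stood at 105 and 106 CPM, and Trim25, a ubiquitin ligase that acts on RIG-I, at 22.3 and 23.6 CPM. Of the transcription factors, Irf1 had a log2 ratio of -0.54 (-1.02 to -0.066), while the ratios of Irf7, at -0.19 (-0.76 to 0.39), Irf9, at -0.33 (-0.77 to 0.11), and Stat2, at 0.23 (-0.25 to 0.70), had intervals that included 0. So did that of Usp18, an inhibitor of the type I receptor that removes Isg15 from proteins, at -0.41 (-1.01 to 0.19). Zbp1, a sensor that can start cell death, had 1 UMI in Muller and 0 in MullerControl, and Oas1a had 0 in both.

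Cxcl10, a chemokine that draws T cells, had 0 UMIs in Müller cells of the Muller library and 52 in those of the MullerControl library. With 3 counts per library as the floor for a count of 0, Cxcl10 was at least 21.0-fold lower in the Muller library as a sum, and this bound leaves out the counting error of the 52 UMIs. The exact upper limit for 0 UMIs is 1.75 CPM in Muller, against 29.9 CPM (22.3 to 39.2) in MullerControl. However, 1 MullerControl cell held 46 of the UMIs.

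**Figure D2:**
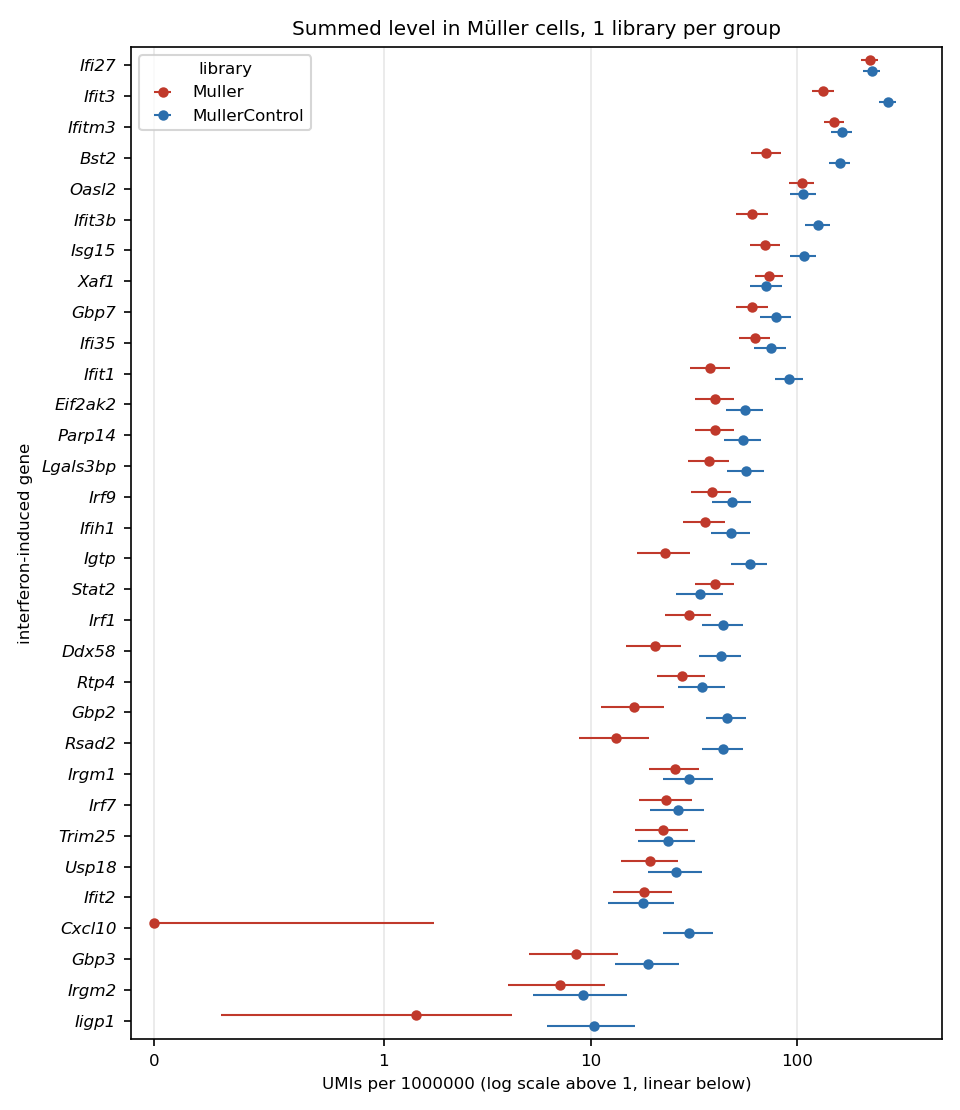
Level of each of the 32 measured members in summed Müller cells (UMIs per 1000000, log scale above 1 and linear below), red for the Muller library and blue for MullerControl, with exact Poisson 95% intervals. Ifit3, Bst2 and Ifit1 lie clearly lower in red, at 133 against 273 CPM for Ifit3, and Ifi27, Oasl2 and Xaf1 overlap.

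Much of the difference in Müller cells lay in a few cells of the MullerControl library that held many members at once. In that library 5 of 635 Müller cells had UMIs of at least 20 different members, 30, 30, 23, 21 and 20 of them, and in the Muller library 0 of 1100 did, which allows a share of up to 0.335% by an exact binomial interval. These 5 cells were 0.787% of the class and 1.29% of its UMIs. The first cell had 4172 UMIs, of which 337 (8.08%) were from members: 66 of Ifit3, 46 of Cxcl10, 35 of Rsad2, 30 of Ifit3b and 21 of Ifit1. The second had 277 member UMIs of 5070, with 65 of Ifit3, 48 of Ifit3b and 27 of Ifit1 but 3 of Cxcl10. The third was led by Ifit3 with 42 UMIs, and the fourth by Bst2 with 26 and Ifit3 with 25. The fifth had 10 each of Ifit1 and Rsad2 among 61 member UMIs. None of the 5 barcodes occurred in the other library.

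Some members depended on these cells far more than others. The 5 cells held 96.2% of the Cxcl10 UMIs of the MullerControl Müller class, 94.4% of Iigp1, 82.9% of Rsad2 and 56.0% of Ifit1. For Ifit3, Ifit3b and Gbp2 the shares were 42.6%, 42.7% and 46.8%. Bst2 lay at 19.1%, Ddx58 at 14.9%, Gbp3 at 12.1% and Ifi27 at 2.77%. Of the members, 11 were present in all 5 cells, among them Ifit1, Ifit3, Ifit3b, Isg15 and Bst2.

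Other gene lists of the response were read in the same 5 cells, of which the fifth has 2391 UMIs, and in the 249 MullerControl Müller cells with at least 3000 UMIs and fewer than 20 members. A list of 64 other interferon-induced genes, which did not serve to choose the cells, summed to 9698 CPM (8450.4 to 11078) in the 5 cells and 596 CPM (554 to 640.1) in the others. The nucleotide kinase gene Cmpk2, a neighbour of Rsad2, had 27 UMIs in the 5 cells, or 1207 CPM against 25.4 CPM in the others. The GTPase gene Gbp6 had 1028 against 48.4 CPM, and Herc6, which encodes a ligase for Isg15 in the mouse, 715 against 22.2 CPM. Kinases, STATs and inhibitors of the pathway summed to 2860.2 CPM (2203 to 3652) in the 5 cells and 505 CPM (467 to 546) in the others, and genes of nucleic acid sensing to 983 CPM (616 to 1489) in the 5 cells and 245 CPM (219 to 274) in the others. The interferon receptors went the other way, with 1 UMI and 44.7 CPM (1.13 to 249) in the 5 cells and 334 CPM (303 to 368) in the others. The interferon genes themselves had 0 UMIs in the 5 cells and 1 in the others. Müller markers summed to 21943 CPM in the 5 cells and 26049.6 CPM in the others, and microglia or macrophage markers gave 1 UMI in the 5 cells.

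**Figure D3:**
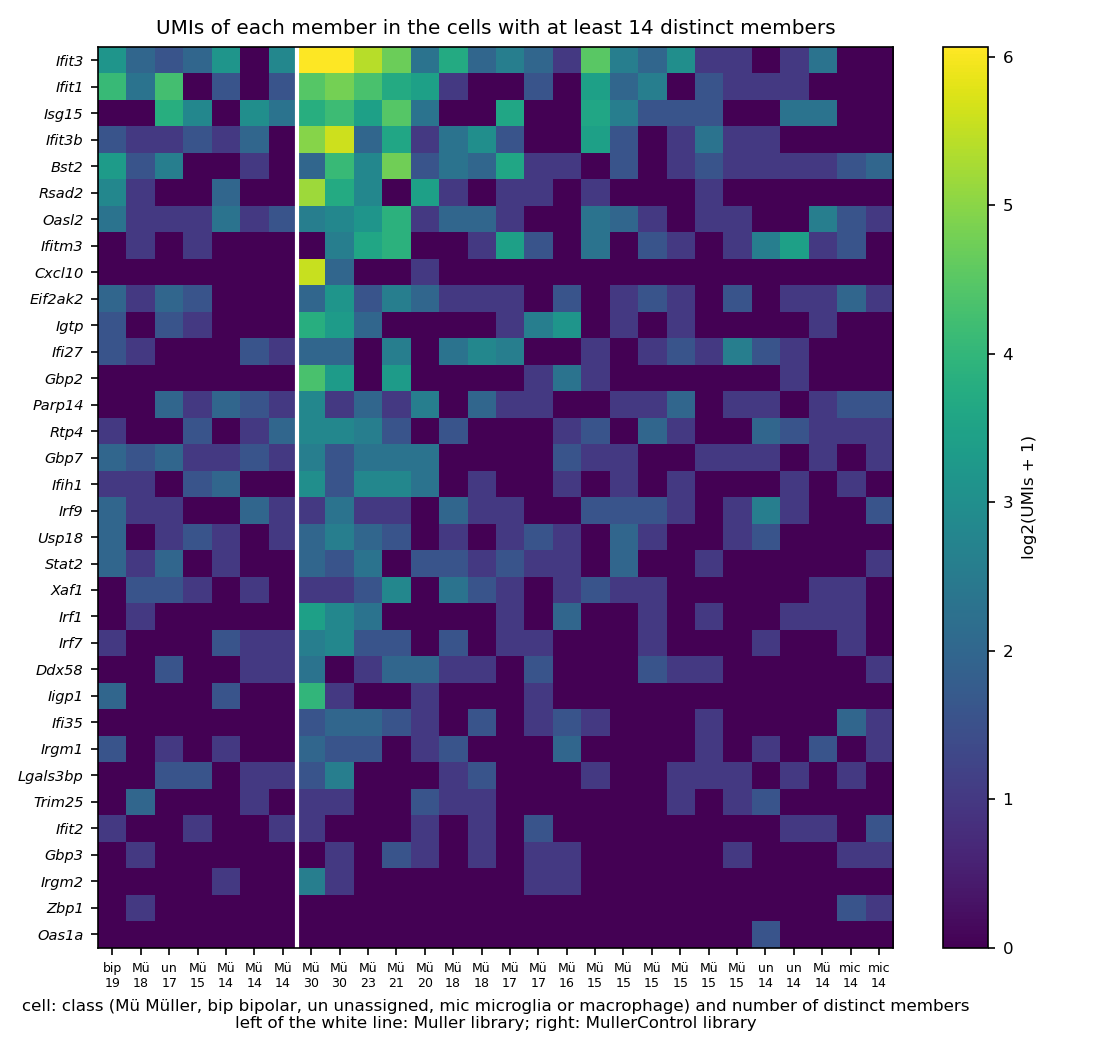
UMIs of each member, as log2(UMIs + 1), in the 28 cells with at least 14 distinct members, 7 of the Muller library left of the white line and 21 of the MullerControl library right of it, each labelled with its class and number of members. The brightest columns are the first 4 MullerControl Müller cells, and Cxcl10 is bright in the first of them.

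Cells with a broad pattern were also present in the Muller library, at lower counts and partly outside the Müller class. Its broadest was a bipolar cell with 19 members and 73 member UMIs of 4487, among them 16 of Ifit1, 9 of Bst2 and 8 of Ifit3. That cell had 0 Müller and 0 microglia marker UMIs. The next were a Müller cell with 18 members and 28 member UMIs and an unassigned cell with 17 members and 4 amacrine markers, which held 18 UMIs of Ifit1 and 13 of Isg15. In the MullerControl library 2 unassigned cells with 7 endothelial markers each had 14 members. In one of them Ifitm3 and Irf9 had 5 UMIs each and Oas1a had 2, and in the other Ifitm3 had 10.

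Leaving out the 5 cells brought most of the sums together. This and the next step were added after the values were seen, and since the cells are chosen by the members themselves, both describe how the sums are made up. Without the 5 cells the summed level was 1535 CPM (1483 to 1589) in Muller and 1684 CPM (1623 to 1747) in MullerControl, a log2 ratio of -0.13 (-0.21 to -0.061). The log2 ratio of the Ifit family was then -0.21 (-0.39 to -0.034). Isg15 moved to -0.017 (-0.36 to 0.33), Ifit1 to -0.11 (-0.57 to 0.35) and Ifit3 to -0.25 (-0.49 to -0.0091), while Rsad2 turned to 0.75 (-0.17 to 1.67) and Cxcl10 was left with 2 UMIs. Bst2, at -0.89 (-1.19 to -0.59), Igtp, at -0.97 (-1.48 to -0.45), Gbp3, at -0.95 (-1.78 to -0.13), Ddx58, at -0.84 (-1.39 to -0.28), and Gbp2, at -0.59 (-1.24 to 0.051), were still at least 1.5-fold lower in the Muller library.

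A wider step left out every Müller cell with at least 8 distinct members, 55 cells (5.00%) in Muller and 69 (10.9%) in the MullerControl library, which held 29.0% and 57.0% of the member UMIs. These cells were deep, with medians of 4472 and 5336 UMIs, beside 1446 and 1892 over the class. They held 11.1% and 21.0% of all UMIs of the class, and the part of depth in this step was not tested. The remaining cells stood at 1227 CPM (1177 to 1278) in Muller and 1218 CPM (1159.9 to 1277) in MullerControl, a log2 ratio of 0.011 (-0.080 to 0.10). Of 28 measured members 3 were then at least 1.5-fold lower, where 6.85% of all measured genes were, and 2 higher, where 8.10% were. Bst2 remained lower with an interval below 0, at -0.66 (-1.02 to -0.30), and Stat2 was higher, at 0.83 (0.17 to 1.49).

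**Figure D4:**
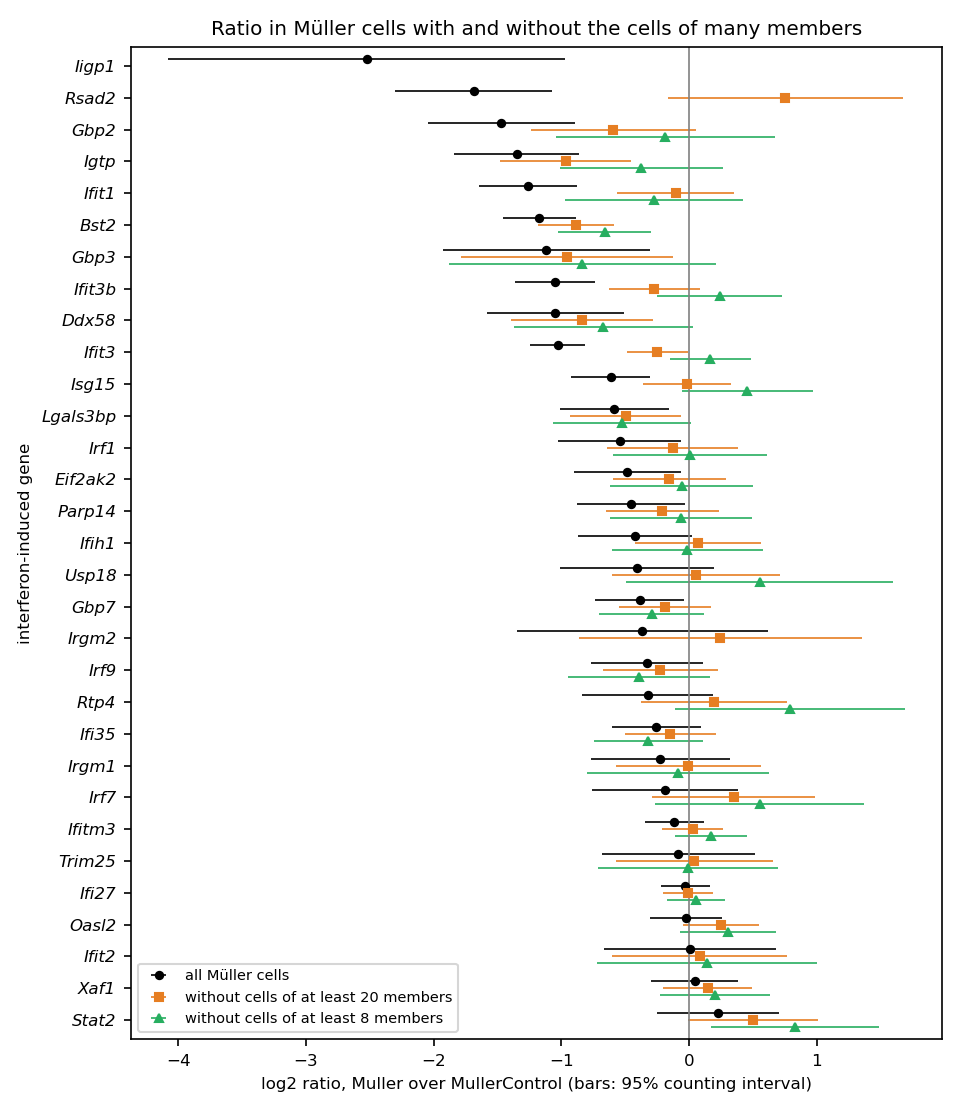
Log2 ratio of Muller over MullerControl with 95% counting intervals for each measured member but Cxcl10, over all Müller cells (black circles), without cells of at least 20 members (orange squares) and without cells of at least 8 (green triangles). Ifit3 lies at -1.03, -0.25 and 0.17, and Bst2 stays left of 0 in all 3.

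A typical Müller cell had few members in either library. As deposited, the median was 1 distinct member in Muller and 2 in the MullerControl library, and 30% (27.3% to 32.8%) against 47.1% (43.1% to 51.1%) of cells had at least 3. Depth differs between these cells, so the 220 Muller and 253 MullerControl cells with at least 3000 UMIs were thinned to 3000 UMIs each, a depth added after the values were seen. The medians were then 4 and 3, and the shares with at least 3 members 68.6% (62.1% to 74.7%) and 69.6% (63.5% to 75.2%). At least 5 members were found in 37.7% (31.3% to 44.5%) of Muller and 30.4% (24.8% to 36.5%) of MullerControl cells. The far ends differed: the highest number was 14 in Muller and 28 in the MullerControl library. With all cells of at least 1000 UMIs thinned to 1000, at least 3 members were found in 15.5% (12.9% to 18.4%) and 18.2% (14.8% to 22.2%), and at least 5 in 2.28% (1.31% to 3.67%) and 5.41% (3.49% to 7.94%), of 703 and 444 cells. This leaves out 397 and 191 shallower cells.

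**Figure D5:**
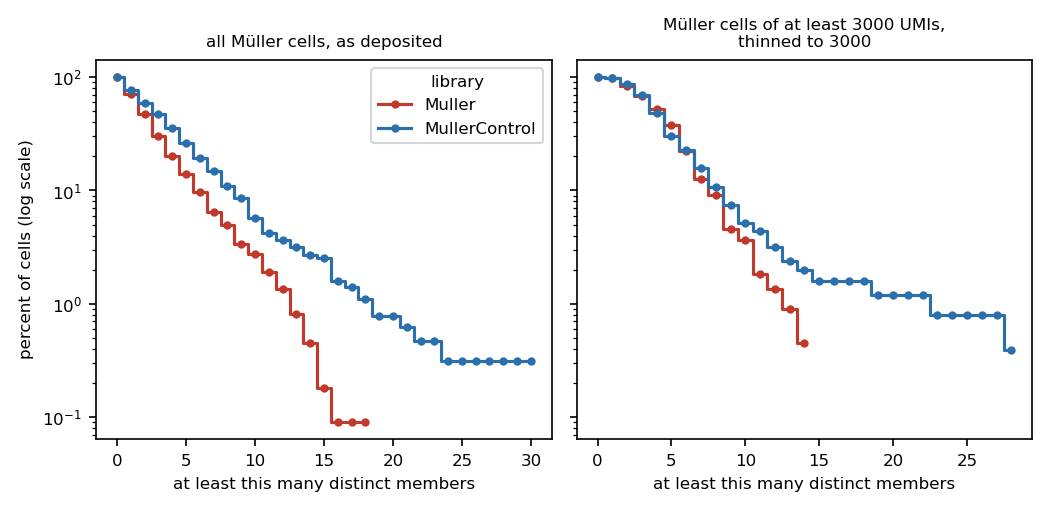
Percent of Müller cells (log scale) with at least a given number of distinct members, red for the Muller and blue for the MullerControl library, as deposited on the left and thinned to 3000 UMIs on the right. On the right the curves cross, with shares in Muller and MullerControl of 37.7% and 30.4% at 5 members and 9.09% and 10.7% at 8. The blue curve alone goes on past 14.

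The makeup of the Müller class also differed between libraries, with barcodes of at least 3000 UMIs making up 20% of the Muller and 39.8% of the MullerControl class. Within these deep barcodes the members summed to 1796 CPM in Muller and 2462 CPM in MullerControl, a log2 ratio of -0.46 (-0.54 to -0.37). Without the cells of at least 20 members, the deep barcodes stood at 1796 and 1758 CPM, a log2 ratio of 0.031 (-0.060 to 0.12). Without those of at least 8 members, they stood higher in Muller, at 1327 against 1173 CPM, a log2 ratio of 0.18 (0.054 to 0.30). From 1000 to under 3000 UMIs the members summed to 1254 CPM in Muller and 1720.3 CPM in MullerControl, a log2 ratio of -0.46 (-0.60 to -0.31). Under 1000 UMIs they summed to 1521 CPM in Muller and 1333 CPM in MullerControl, a log2 ratio of 0.19 (-0.062 to 0.44). Malat1, a nuclear RNA whose share serves as a sign of the kind of barcode, also split the class. With a Malat1 share under 5% the level was 1838 CPM in Muller and 1885 CPM in MullerControl, a log2 ratio of -0.037 (-0.21 to 0.14), and with at least 5% it was 1479 CPM in Muller and 2296 CPM in MullerControl, a log2 ratio of -0.63 (-0.71 to -0.56). In the middle depth range the Malat1 groups differed as well in size, 69 of 483 Muller and 99 of 191 MullerControl barcodes being under 5%. In that low-Malat1 group the level was 2154 CPM in Muller and 2154 CPM in MullerControl, a log2 ratio of 0.00011 (-0.25 to 0.25), and in the 414 Muller and 92 MullerControl barcodes with at least 5% it was 1139 CPM in Muller and 1371 CPM in MullerControl, a log2 ratio of -0.27 (-0.47 to -0.064).

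Markers of other cell types in the Müller class moved in several directions. The 14 microglia or macrophage markers summed to 59.4 and 54.7 CPM in Muller and MullerControl, with 4 and 1 of them at 0, and all 7 T or NK cell markers were at 0 in both. Bipolar markers summed to 669 and 109.9 CPM, rod markers to 5682 and 3864 CPM and retinal pigment epithelium markers to 17.6 and 295 CPM, while the Müller markers themselves summed to 19982 and 24725 CPM. Their part in the members' ratios was not tested.

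Upstream of the members, little differed in Müller cells. The 21 listed interferon genes gave 0 UMIs in Muller and 1 in the MullerControl Müller cells. Over all deposited barcodes they gave 0 and 6 UMIs, of which 5 were of Ifng, the type II interferon, in 4 unassigned MullerControl barcodes. Deposited barcodes with at least 3 T or NK markers numbered 0 in Muller and 6 in MullerControl, and 4 of the Ifng UMIs were in them. Of these 6 barcodes, 1 was kept after filters and doublet removal. Of the interferon receptors 5 were measured and 0 passed 1.5-fold in either direction, where 7.53% of all measured genes were higher and 6.19% lower. Ifngr1 stood at 89.3 and 106 CPM in Muller and MullerControl, Ifnar2 at 68.4 and 69.0 CPM and Ifnar1 at 53.2 and 50.1 CPM.

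Of 10 measured kinases, STATs and inhibitors, 1 was at least 1.5-fold higher in the Muller library, beside 7.53% of all measured genes, and 0 lower, beside 6.19%. The higher gene was Socs3, a feedback inhibitor of JAK signalling, at 19.9 and 9.78 CPM in Muller and MullerControl, a log2 ratio of 0.98 (0.19 to 1.77). The kinase gene Jak1 stood at 132 and 119.7 CPM and the STAT inhibitor gene Pias1 at 61.7 and 67.3 CPM. Of 8 measured genes of nucleic acid sensing, 1 was higher and 0 lower, beside the same 7.53% and 6.19% of all measured genes. The higher one was the Toll-like receptor adaptor Myd88, with 21 and 8 UMIs and an interval that included 0. Tlr3, a receptor for double-stranded RNA, stood at 54.1 and 61.0 CPM, Irf3 at 50.8 and 59.3 CPM and Adar at 32.8 and 35.1 CPM. The 26 measured other interferon-induced genes included 7 at least 1.5-fold lower, beside 6.19% of all measured genes, and 0 higher, beside 7.53%, with a median of -0.23. Gbp6 had a ratio of -0.65 (-1.08 to -0.23), N4bp1 of -0.19 (-0.54 to 0.15) and Trafd1 of 0.29 (-0.15 to 0.73). Without the 5 cells, 3 of 24 were lower, beside 6.18% of all measured genes, and 1 higher, beside 7.58%, with a median of 0.048.

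In microglia or macrophages the interval of the members' summed ratio included 0. The class held 110 Muller and 160 MullerControl cells, with medians of 3623 and 5062 UMIs, and its 14 markers were all detected in both. Of 23 measured members 5 were at least 1.5-fold higher in the Muller library, where 13.7% of 6473 genes were, and 2 lower, where 6.98% were. The median was 0.37, beside 0.093 over all genes, and the summed log2 ratio 0.089 (-0.036 to 0.21). The higher calls lay mostly among members with few UMIs: of the 12 members with at least 50 UMIs 1 was higher, where 7.16% of such genes were, and 2 were lower, where 4.34% were. Thinned to 1000 UMIs per cell, 1 of 6 members was higher and 2 lower, with a median of 0.050. The share of all genes was not computed at that depth, so these counts have no reference. Markers of other cells were higher in this class in the Muller library, those of rods at 3456 and 2122 CPM in Muller and MullerControl, of bipolar cells at 349 and 69.6 CPM and of amacrine cells at 47.8 and 12.2 CPM, and their part in the members' values was not tested. Ifitm3 was higher, at 373 CPM (316 to 436) in Muller, against 242 CPM (209 to 278) in MullerControl, a log2 ratio of 0.63 (0.32 to 0.93). Bst2 was lower by less than 1.5-fold, at 217 CPM (175 to 267) in Muller, against 310.1 CPM (273 to 351) in MullerControl, a log2 ratio of -0.50 (-0.85 to -0.16). Cxcl10 was lower, at 62.1 CPM (40.6 to 91.0) in Muller, against 144 CPM (119 to 173) in MullerControl, but 1 cell held 10 of 26 UMIs in the Muller and another 38 of 118 in the MullerControl library, and 5.45% and 9.38% of cells had any. Lgals3bp had a log2 ratio of -0.32 (-0.70 to 0.070), Ifi27 of 0.25 (-0.24 to 0.75), Eif2ak2 of 0.53 (-0.11 to 1.17), Ifi35 of -0.12 (-0.80 to 0.57), Irf1 of 0.22 (-0.45 to 0.90) and Irf7 of 0.38 (-0.28 to 1.05). Members singled out after their values were seen were Usp18, at 1.12 (0.20 to 2.04), Ddx58, at 1.05 (0.12 to 1.98), and Irf9, at -0.85 (-1.68 to -0.026).

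In rods 3 of the measured members had levels of the same order as in Müller cells. The others stood at 15.4% or less of their Müller levels, a split drawn from the values themselves. It is not a split by level, since Ifi27, at 12.1 CPM, exceeded Trim25, at 10.5 CPM, in rods of the Muller library. Irf7, the master regulator of type I interferon genes, stood at 32.6 CPM (27.9 to 37.9) in Muller, against 36.3 CPM (32.6 to 40.3) in MullerControl, in 3.43% and 5.00% of rods, and this was 140.0% and 137% of its level in Müller cells. Stat2 stood at 16.3 and 15.2 CPM and Trim25 at 10.5 and 15.5 CPM in Muller and MullerControl, 40.8% and 44.8%, and 47.2% and 65.8%, of their Müller levels. The log2 ratios of the 3 genes were -0.15 (-0.41 to 0.11), 0.11 (-0.28 to 0.49) and -0.54 (-0.99 to -0.10). Irf7 was lower in bipolar cells, at 3.99 and 3.69 CPM.

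Among the other 10 measured members in rods, 8 were higher in the Muller library, and Irf9 and Ddx58 had intervals that included 0. Of 13 measured members 8 were at least 1.5-fold higher, where 14.5% of 11465 genes were, and 0 lower, where 2.13% were, and the median log2 ratio was 1.60, beside 0.071 over all genes. That median rests on members with few UMIs in rods: it was 0.52 over the 7 members with at least 50 UMIs, 0.59 with a stricter limit on marker shares and 0.40 in rods thinned to 1000 UMIs. Ifi27 stood at 12.1 CPM (9.28 to 15.4) in Muller, against 2.08 CPM (1.27 to 3.22) in MullerControl, a log2 ratio of 2.49 (1.78 to 3.20). Ifitm3 had a ratio of 1.61 (1.03 to 2.19), Isg15 of 1.63 (0.81 to 2.45), Bst2 of 0.72 (0.17 to 1.27) and Irf9 of 0.52 (-0.15 to 1.19). Müller markers in rods were higher too, at 638 and 218 CPM in Muller and MullerControl, which is 3.19% and 0.883% of their level in Müller cells. For Ifi27 the same shares were 5.40% and 0.912%, for Ifit3, named like Oasl2 after its values were seen, 4.31% and 0.611%, and for Oasl2 4.38% and 0.489%. Ifit1 had 8.07% and 0.456%, Xaf1 5.77% and 1.91% and Isg15 8.51% and 1.75%. Larger shares in both libraries were those of Ifitm3, 7.87% and 2.36%, and Bst2, 13.3% and 3.58%. Ddx58 had 10.3% and 3.43%, and Irf9 15.4% and 8.62%. The part of RNA from Müller cells in rod barcodes was not tested.

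In the inner neurons the members were few. Of 20 measured in bipolar cells 5 were at least 1.5-fold higher, where 4.32% of 12230 genes were, and 3 lower, where 7.03% were. Ifit2 was lower, at 3.99 CPM (2.79 to 5.52) in Muller, against 13.5 CPM (9.84 to 18.2) in MullerControl, a log2 ratio of -1.76 (-2.39 to -1.13), with no cell above 3 UMIs in either library. Ifi27 was higher, at 17.3 CPM (14.7 to 20.2) in Muller, against 8.00 CPM (5.23 to 11.7) in MullerControl, a log2 ratio of 1.06 (0.48 to 1.65), and Müller markers in bipolar cells were higher as well, at 391.6 CPM in Muller and 202 CPM in MullerControl. Ifit1 had a ratio of -0.81 (-1.57 to -0.036), although the bipolar cell with 19 members held 16 of the 34 UMIs of the Muller library. Stat2 stood at 19.3 and 20.9 CPM, and Lgals3bp, Irgm1 and Ifit3 had intervals that included 0, while that of Irf9 was 0.81 (0.060 to 1.57).

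In amacrine cells Ifit2 was again lower, at 17.7 CPM (12.6 to 24.1) in Muller, against 29.4 CPM (18.4 to 44.6) in MullerControl, a log2 ratio of -0.76 (-1.5 to -0.028). There 6 members were measured, 1 was at least 1.5-fold higher (8.76% of 10873 genes) and 2 were lower (13.3% of genes). Ifit2 thus stood, in Muller and MullerControl, at 17.7 and 29.4 CPM in amacrine, 18.0 and 17.8 CPM in Müller and 3.99 and 13.5 CPM in bipolar cells, and the amacrine and Müller intervals overlapped in both libraries. Stat2 in amacrine cells, at 30.9 and 34.8 CPM, Irf9, Ifi27, Ifit1 and Irgm1 had intervals that included 0. In cones 4 members were measured, 2 at least 1.5-fold higher (6.56% of 9912 genes) and 1 lower (8.35% of genes). Irf7 stood there at 26.4 CPM (17.3 to 38.7) in Muller, against 14.3 CPM (10.4 to 19.1) in MullerControl, a log2 ratio of 0.91 (0.22 to 1.59). Stat2, Irf9 and Trim25 had intervals that included 0.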

How the data were processed

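The deposited matrices hold counts, UMIs per gene and barcode not normalized by the authors. The submitters' processing notes name Cell Ranger 4.0.0, Seurat 4.0.5 and the builds mm10 and GRCh38 without roles. The labels name both a v3.1 kit and a v2 protocol. Barcodes needed 300 genes and no more than 20% of UMIs from mitochondrial genes (429 Muller and 905 MullerControl barcodes left out), and the highest Scrublet scores, 9.51% and 8.32% of barcodes, were removed as doublets (0.8% per 1000 barcodes, scanpy 1.11.5). Its automatic threshold marked 662 and 67. A barcode joined a class with at least 3 of its markers and a marker share of at least 0.6% of UMIs (Müller), 1.5% (cone), 0.5% (bipolar), 0.2% (amacrine), 1% (microglia or macrophage) or 2% (rod). Barcodes of 1 library are not replicates, so no p-value was computed. Intervals are exact Poisson (levels), Clopper-Pearson (shares) and normal on the log scale (ratios), at 95%, for counting error only. Ratios and thinning were tested on simulated data. All 35 members are accounted for; named are members with at least 20 UMIs in Müller cells, the 8 with most UMIs in other classes and 3 genes per pathway list. Transcript words came from GENCODE vM21 (GRCm38). One further pathway gene is not reported here. The members and lists were chosen with earlier results of these data known.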

Additional observations from a re-analysis of the deposited data

Results flagged for a closer look

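Some members had counting intervals on opposite sides of 0 in 2 cell classes. The differences given are of log2 ratios, the first class minus the second, and none was tested over libraries. In Müller cells minus rods the difference was -3.90 for Ifit1, -2.78 for Ifit3, -2.25 for Isg15 and -1.89 for Bst2, all lower in Müller cells and higher in rods of the Muller library. Without the 5 MullerControl cells of at least 20 members, the Müller intervals of Ifit1 and Isg15 included 0. Their log2 ratios were then -0.11 and -0.017, beside -0.25 for Ifit3 and -0.89 for Bst2, whose intervals stayed below 0. Müller markers in rods were at 638 CPM in Muller and 218 CPM in MullerControl, and their part was not tested. Ddx58 differed by -2.09 between Müller cells and microglia or macrophages. Bst2 differed by -3.70 between Müller and bipolar cells, by -1.22 between microglia or macrophages and rods and by -3.03 between microglia or macrophages and bipolar cells, where 1 bipolar cell held 9 of 31 UMIs of the Muller library. Irf9 differed by -1.67 between microglia or macrophages and bipolar cells. Ifit1 differed by 3.45 between rods and bipolar cells, and 1 bipolar cell held 16 of its 34 UMIs in the Muller library.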

How the results depend on the processing

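No paired analysis was possible because each group has 1 library. Another scaling, count minimum, added count, doublet or barcode filter, gate, clustering, thinning or removal of each member's highest cell was tried. These gave 9 to 13 members at least 1.5-fold lower in Müller cells, beside 12, and medians of -0.58 to -0.37, beside -0.44. At a 2-fold threshold 11 were lower. The share of all genes was not computed at these settings, and over all Müller cells at 1.5-fold it was 6.19%. In deep cells thinned to 3000 UMIs, added later, the median was -0.35. Under 1000 UMIs the median was 0.39 over 8 members, with 3 higher and 1 lower (of all genes 15.9% and 14.5%), and at a Malat1 share under 5% -0.018 over 12, with 0 higher and 4 lower (18.9% and 10.9%); fewer members were measured there. With 5 strata of depth and Malat1 weighted equally (the sixth had too few cells) the median was -0.23. Without cells of at least 20 or 8 members, added after the data were seen, it was -0.062 or -0.011, with 5 or 3 lower (of all genes 6.18% or 6.85%). The microglia median, 0.37, was 0.050 over 6 members thinned to 1000 UMIs, and the rod median, 1.60, ranged from 0.40 to 1.62. The share of Müller cells with at least 5 members, Muller over MullerControl, had a ratio of 0.421 at 1000 UMIs, 0.879 at 2000 and 1.24 at 3000; with at least 3 it was 0.850 at 1000 and 0.637 as deposited. Single members in Müller cells changed sign in 67 of 541 cases, over 21 of 32 members. Of these, 55 were of members whose interval over all cells included 0, and 12 of members whose interval lay below 0: Irf1 (0.27) from 1000 to under 3000 UMIs; Ifit3 (0.13), Ifit3b (1.74) and Isg15 (0.43) under 1000 UMIs; Ifit3b (0.41) and Gbp7 (0.27) at low Malat1; Gbp7 (0.14) with equal strata; Rsad2 (0.75) without cells of 20 members; and Ifit3 (0.17), Ifit3b (0.24), Isg15 (0.46) and Irf1 (0.0048) without cells of 8. The cause was not tested. Members with few UMIs in neurons limit what depth can show there.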
